A study of Mus musculus with 14 samples.

Results

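Genes of antimicrobial peptides and proteins, 10 in all, were followed in bulk RNA-Seq of the mouse esophagus, among 55291 genes counted. These 10 genes were every row of the count tables whose symbol was Defb1, Defb3, Defb4, Defb6, Defb14, Slpi, Lcn2, Camp, Ltf or Pglyrp1, and each symbol was found in all 14 samples. The samples came from 9 wild-type C57BL/6 mice, and no mouse carried a transgene or received a treatment. Epithelium peeled from the esophagus was sequenced from 5 aged mice (18 months or older) and 4 young mice (4 months or younger). Stroma was sequenced from O1, O2 and O3 among the aged mice and from Y1 and Y3 among the young mice, so that 5 mice gave both layers. Epithelium alone came from OF5, OM8, YF5 and YM4, whose codes have another form. The labels give a sex for only some mice, so that sex could not be entered in a test.

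Epithelial surfaces secrete small antimicrobial proteins that act on microbes before immune cells arrive. Beta-defensins are short cationic peptides held together by disulfide bonds between 6 cysteines, and they act on microbial membranes. Slpi is a secreted inhibitor of neutrophil serine proteases with antimicrobial activity of its own. Camp, Lcn2, Ltf and Pglyrp1 are stored in neutrophil granules, and some of them are also made by epithelia under inflammation: Camp is the precursor of the cathelicidin peptide, Lcn2 binds bacterial siderophores, Ltf binds iron, and Pglyrp1 binds bacterial peptidoglycan.

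The 5 beta-defensin genes lie on chromosome 8 on the plus strand (GRCm38, GENCODE M21 annotation). Defb14 (19194357 to 19195212), Defb4 (19198706 to 19201545), Defb6 (19225478 to 19228209) and Defb3 (19293360 to 19295291) follow each other with 3493, 23932 and 65150 bases between neighbours. Defb1 (21776599 to 21795185) lies 2481307 bases beyond Defb3. Each of the 5 is a protein-coding gene with 2 exon blocks. Their coding sequences, taken from the GENCODE M21 transcript sequences at the annotated coding part, are given with capitals marking the last 6 cysteine codons. They are printed because the genes form a family with similar sequence and very different levels.
Defb1: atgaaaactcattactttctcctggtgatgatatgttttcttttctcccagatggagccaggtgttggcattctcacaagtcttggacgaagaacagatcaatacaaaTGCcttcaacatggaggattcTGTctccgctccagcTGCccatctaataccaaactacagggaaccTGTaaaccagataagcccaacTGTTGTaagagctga
Defb14: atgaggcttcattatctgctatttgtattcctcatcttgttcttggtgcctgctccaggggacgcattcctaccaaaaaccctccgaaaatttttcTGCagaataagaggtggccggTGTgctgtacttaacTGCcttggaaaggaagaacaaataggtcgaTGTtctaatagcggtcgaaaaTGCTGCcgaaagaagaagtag
Defb4: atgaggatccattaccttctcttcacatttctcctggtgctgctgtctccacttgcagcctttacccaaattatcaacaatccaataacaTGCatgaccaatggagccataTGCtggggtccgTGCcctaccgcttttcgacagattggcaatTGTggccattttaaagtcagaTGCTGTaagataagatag
Defb6: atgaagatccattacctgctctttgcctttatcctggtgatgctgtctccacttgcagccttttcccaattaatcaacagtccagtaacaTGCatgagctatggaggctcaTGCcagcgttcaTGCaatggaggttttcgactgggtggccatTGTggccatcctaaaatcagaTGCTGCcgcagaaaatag
Defb3: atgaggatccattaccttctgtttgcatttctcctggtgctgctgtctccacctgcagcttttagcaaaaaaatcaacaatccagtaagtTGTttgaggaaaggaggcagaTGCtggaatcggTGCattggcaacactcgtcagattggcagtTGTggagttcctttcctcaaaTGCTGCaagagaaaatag

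Defb4, Defb6 and Defb3 each had 63 codons before the stop, Defb14 had 67 and Defb1 had 69. The spacing of the 6 marked codons was shared by Defb3, Defb4 and Defb6, with 6, 3, 9, 6 and 0 codons between them, while Defb1 and Defb14 had 4 codons in the second gap. Over 192 coding bases without gaps, Defb4 and Defb6 were identical at 151 (78.6%), Defb3 and Defb4 at 146 (76.0%) and Defb3 and Defb6 at 138 (71.9%). The longest run of bases shared by 2 transcripts of these genes was 33, between Defb3 and Defb4, so that a shorter read could match both. Whether the authors counted reads that match several genes is not given in the sources used here.

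In the esophagus, 5 of the 10 genes were epithelial and the other 5 were near 0 in epithelium. Slpi, Defb4, Defb1, Defb6 and Defb14 were higher in all 9 epithelial samples than in any of the 5 stromal samples. Lcn2, Camp, Ltf and Pglyrp1 had few counts in either layer, and Defb3 had 0 counts in all 9 epithelial samples. Together the 10 genes took 0.232% to 0.391% of protein-coding counts in epithelium and 0.00171% to 0.00491% in stroma. In bulk tissue, fewer cells of a type and less RNA per cell cannot be told apart.

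**Figure D1:**
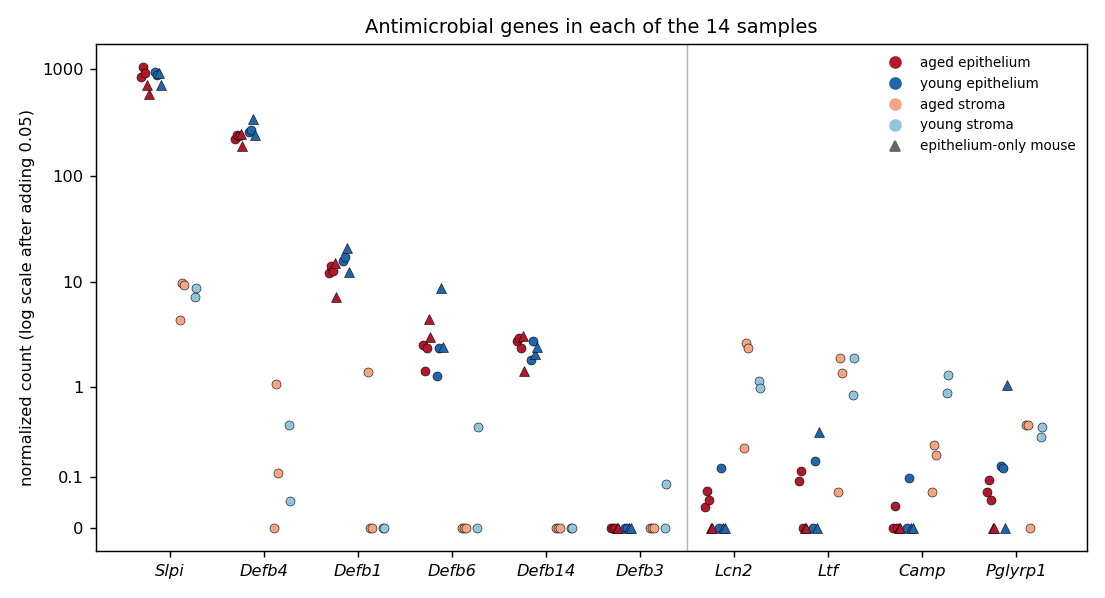
Normalized count (log axis after adding 0.05) of each gene in the 14 samples; each point is 1 sample, coloured by age and layer, and triangles are the 4 epithelium-only mice. Slpi lies between 581 and 1049 in epithelium and between 4.43 and 9.82 in stroma, whereas the 4 granule genes on the right do not exceed 2.67 in any sample.

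The layers matched their labels by marker genes, with 1 limit. All 13 keratinocyte markers tested (6 basal and 7 superficial) were higher in epithelium, and all 6 skeletal muscle markers were lower. Stroma held muscle: the summed level of the 6 muscle markers was 13034 to 19453 normalized counts in stroma and 8.27 to 671 in epithelium. Protein-coding counts were 1041386 to 1432509 in the epithelium of the 4 epithelium-only mice, where 3 genes (CT010467.1, Gm23935 and mt-Rnr2) took 73.5% to 81.3% of all counts, and 7959322 to 11051060 in the other epithelial samples. A count of 3 therefore corresponded to 0.707 to 1.25 normalized counts in those 4 mice and to 0.0872 to 0.175 in the other 10 samples. Normalized counts are CPM on the library size adjusted by TMM.

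The layers were compared first, to find which of the genes belong to the epithelium. After the filter on low counts 16791 genes were tested, of which 26.1% were called higher and 30.1% lower in epithelium, and 14.4% had every epithelial sample above every stromal sample. Only 5 of the 10 genes passed this filter, and all 5 were DEGs higher in epithelium. Their median log2 fold change was 6.72, or 5.87 with Defb14 at its lower bound, beside -0.05 over all genes tested. A gene can pass the filter through its level in epithelium alone, so that the count covers the genes with an epithelial level and not the 10.

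Slpi (chromosome 2, 164354070 to 164389095, minus strand), the protease inhibitor, had the highest level per kb of exon. Its normalized count in the 9 epithelial samples was 581 at the lowest, 878 at the median and 1049 at the highest. In stroma it was 4.43, 9.82, 9.41, 7.33 and 8.86 in O1, O2, O3, Y1 and Y3. Slpi was thus detected in every stromal sample, with 76 to 246 counts, and the layers did not overlap. The means were 841 ± 148 (SD, n = 9) and 7.97 ± 2.19 (SD, n = 5), a log2 fold change of 6.72 (SE 0.32, adjusted p = 1.61e-12, edgeR). This p, like the adjusted p-values marked edgeR below, is from the quasi-likelihood test after Benjamini-Hochberg adjustment over all genes tested.

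The stromal Slpi level was set beside that of Krt4, the keratin of superficial esophageal cells. Stroma had 17.9, 201, 101, 32.7 and 17.5 normalized counts of Krt4 in O1, O2, O3, Y1 and Y3, and epithelium had 9003 to 27237. Per 1000 Krt4 counts, Slpi had 34.7 to 70.3 counts in epithelium and 248, 48.8, 93.4, 224 and 508 counts in the stroma of O1, O2, O3, Y1 and Y3. Stroma of O2, with the most Krt4, was the only stromal sample within the epithelial range of this ratio, and the other 4 were above it. Such a ratio depends on the marker chosen. The log2 fold change between layers was 7.96 for Krt4, while the median was 7.08 over the 7 superficial markers and 5.85 over the 6 basal markers. Slpi, at 6.72, lay between these medians. The part of epithelial RNA in the stromal Slpi level was not tested beyond these values.

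Defb4, a beta-defensin of mouse surface epithelia, had the highest level per kb among the defensins. Its normalized count in epithelium was 189 at the lowest, 241 at the median and 339 at the highest. Stroma had 0, 1.07, 0.115, 0.413 and 0.0394 in O1, O2, O3, Y1 and Y3, from 0, 26, 3, 8 and 1 counts. The 26 counts of O2 were most of the 38 stromal counts, in the stromal sample with the most Krt4. Means were 248 ± 40.6 (SD, n = 9) and 0.327 ± 0.445 (SD, n = 5), with a log2 fold change of 9.51 (SE 0.65, adjusted p = 9.39e-10, edgeR). Without the mouse O2 it was 10.73. Per 1000 Krt4 counts, Defb4 had 9.46 to 24.7 counts in epithelium and 0 to 12.6 in stroma, where 4 of the 5 samples were below the epithelial range and Y1 was inside it.

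Defb1, a beta-defensin that many epithelia make without an inflammatory stimulus, had a lower level per kb than Defb4. It had 7.31 normalized counts at the lowest, 14.3 at the median and 20.8 at the highest in epithelium. In stroma, O1 had 1.40 (24 counts) and the other 4 samples had 0 counts. The log2 fold change was 5.87 (SE 0.86, adjusted p = 2.81e-05, edgeR), and it rested on that 1 library for its size: without the mouse O1 every stromal sample was at 0, and Defb1 was at least 113-fold higher in epithelium, taking 3 counts per library as the floor. The stroma of O1 had the second lowest Krt4 level of the 5, and 78.2 Defb1 counts per 1000 Krt4 counts where epithelium had 0.518 to 1.52.

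Defb14 and Defb6 had few counts but were present in each epithelial sample. Defb14, the mouse counterpart of human beta-defensin 3, had 5 to 97 counts, which is 1.41 normalized counts at the lowest, 2.42 at the median and 3.10 at the highest. It had 0 counts in all 5 stromal samples and was at least 17.5-fold higher in epithelium (adjusted p = 8.33e-08, edgeR). Defb6 had 7 to 88 counts in epithelium, with 1.28 normalized counts at the lowest, 2.42 at the median and 8.75 at the highest, the last from 21 counts in the shallow sample YF5. Its only stromal counts were 10 in Y3 (0.394 normalized counts). Defb6 had a log2 fold change of 5.05 (SE 0.90, adjusted p = 7.63e-05, edgeR). Without the mouse Y3 it was at least 23.2-fold higher.

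In each of the 5 mice with both layers, the epithelial value was above the stromal value for Slpi, Defb4, Defb1, Defb14 and Defb6. The share of all genes with this order in 5 of 5 mice was not counted. With the epithelium of these 5 mice alone against stroma, these 5 genes were called higher. That fit called 9400 of 16713 genes in either direction. With the 4 epithelium-only mice against stroma, Slpi, Defb4, Defb1 and Defb6 were tested and called higher, and Defb14 did not pass the filter. That fit called 6578 of 15484 genes in either direction. Both fits reuse libraries of the comparison of layers, so that they are no replication of it.

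Defb3 was the exception among the clustered defensins. It had 0 counts in all 9 epithelial samples, and its only counts were 2 in the stroma of Y3. A count of 0 allowed up to 0.0872 to 1.25 normalized counts per epithelial sample, so that a level like the median of Defb6 (2.42, with 323 exon bases beside 275 of Defb3) would lie above this limit. Defb3 is also the gene whose upstream sequence resembles that of Defb6. The 250 bases before the RefSeq start of each gene (GRCm38.p6, plus strand, chr8:19225228-19225477 for Defb6 and chr8:19293111-19293360 for Defb3) are printed because 2 such similar windows precede genes with different levels, and capitals mark bases that differ or are unaligned.
Defb6: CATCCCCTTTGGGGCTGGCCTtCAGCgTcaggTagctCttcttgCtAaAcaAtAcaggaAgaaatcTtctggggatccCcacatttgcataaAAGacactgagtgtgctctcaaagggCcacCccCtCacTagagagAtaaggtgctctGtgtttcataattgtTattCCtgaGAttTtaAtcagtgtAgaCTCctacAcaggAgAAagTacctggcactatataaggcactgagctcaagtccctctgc
Defb3: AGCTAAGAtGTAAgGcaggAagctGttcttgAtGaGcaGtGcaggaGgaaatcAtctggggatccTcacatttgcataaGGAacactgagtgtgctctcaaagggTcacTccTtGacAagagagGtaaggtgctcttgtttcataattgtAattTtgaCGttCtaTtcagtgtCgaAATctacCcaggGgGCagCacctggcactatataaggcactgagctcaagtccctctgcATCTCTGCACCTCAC

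In an alignment with 30 unaligned bases over both windows, most of them at the ends, 188 of 235 aligned bases were identical (80.0%). RefSeq windows were found for 7 of the 10 genes. The letters TGANTCA of an AP-1 motif, searched on both strands, were in 0 of these 7 windows and in 6.75% of 32851 windows of this length. An NF-kB motif of 10 letters, searched in the same way, was found for Pglyrp1 only, against 4.11% of all windows. A C/EBP motif (TTNNGNAA) was in 5 of the 7, Defb3, Defb6, Lcn2, Ltf and Slpi, against 36.8% of all windows, and so did not separate Defb6 from Defb3. The motifs are descriptions of letters in these windows and say nothing of binding.

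Levels of different genes were compared per kb of exon. In epithelium Slpi had 712 ± 125 normalized counts per kb (SD, n = 9) and Defb4 had 547 ± 89.4. Then came Defb1 with 16.3 ± 4.33, Defb14 with 11.8 ± 2.73 and Defb6 with 9.88 ± 7.07. Defb4 (417 to 746 per kb) and Defb1 (8.38 to 23.9 per kb) did not overlap, which is the widest step among these 5. Neighbours closer than this overlapped in range, and 2 of the 3 pairs kept an order within samples. Slpi was above Defb4 in 9 of 9 samples by a mean log2 difference of 0.38 ± 0.23 (SD; adjusted p = 0.00586, exact paired permutation test, two-sided, over 3 pairs of genes), and Defb1 was above Defb14 in 9 of 9 by 0.46 ± 0.41 (adjusted p = 0.00586, exact permutation test). Defb14 was above Defb6 in 7 of 9, by 0.46 ± 0.92, which was within the spread (adjusted p = 0.172, exact permutation test). The pairs were neighbours in the order of these same means, and the test covers only the spread between samples. Orders per kb also depend on the annotated lengths. All 204 exon bases of Defb14 are coding, whereas Defb1 has 872 exon bases and a coding sequence of 210.

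**Figure D2:**
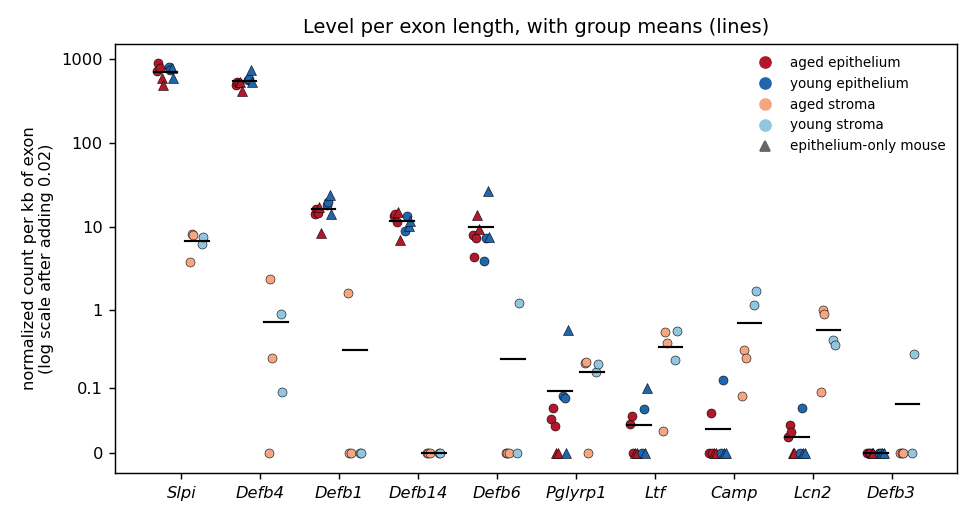
Normalized count per kb of exon (log axis after adding 0.02) for the 10 genes, ordered by their epithelial mean; points are samples and black lines are the means of the 9 epithelial and 5 stromal samples. Slpi (mean 712) and Defb4 (547) stand above the other defensins drawn, whose epithelial means lie between 0 and 16.3.

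The 4 granule genes had very low levels and did not pass the filter of the comparison of layers. Lcn2, Camp and Ltf had higher means in stroma, and Pglyrp1 had its highest value in an epithelial sample. Lcn2 (chromosome 2, 32384633 to 32388252), the siderophore-binding lipocalin, had 4, 65, 62, 22 and 25 counts in the stroma of O1, O2, O3, Y1 and Y3 and 0 to 4 in the epithelial samples. The stromal mean was 1.48 ± 1.02 normalized counts (SD, n = 5) and the epithelial mean 0.0291 ± 0.0443 (SD, n = 9). Every stromal sample was above every epithelial sample for this gene, and the share of all genes with this order was not counted. The lowest stromal value was 0.233, from the 4 counts of O1. In the 4 shallow epithelial samples a count of 0 allowed up to 0.707 to 1.25 normalized counts, which is above that value.

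Ltf (chromosome 9, 111019271 to 111042767), the iron-binding lactoferrin, had 1, 46, 36, 16 and 48 counts in the stroma of O1, O2, O3, Y1 and Y3, and 0 to 5 in epithelium. Camp (chromosome 9, 109847379 to 109849617), the cathelicidin precursor, had 1, 6, 5, 17 and 33 counts in the same stromal samples and 0 to 3 in epithelium. Thus Camp was highest in the stroma of Y1 and Y3, while Lcn2 was highest in that of O2 and O3. Pglyrp1 (chromosome 7, 18871331 to 18890459), the peptidoglycan-binding protein, had 7, 10, 0, 6 and 10 stromal counts and 0 to 4 epithelial counts. Its highest normalized count, 1.04, was 3 counts in the shallow epithelial sample YM4.

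These genes could be tested where fewer samples or no filter let them in. With mouse as a replicate block in the 5 mice with both layers, Lcn2 (log2 fold change -4.48, adjusted p = 0.00563), Camp (-4.14, adjusted p = 0.0383) and Ltf (-3.79, adjusted p = 0.04) were called lower in epithelium by edgeR, and Pglyrp1 was not (-1.25, adjusted p = 0.499). This fit called 8689 of 22771 genes in either direction. With 0 to 5 counts per epithelial sample, the granule genes entered it through their stromal counts alone, so that these calls cover genes with a stromal level. Within a mouse, Lcn2 and Camp were higher in stroma in 5 of 5 mice, and Ltf and Pglyrp1 in 4 of 5. The share of all genes with such an order was not counted.

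Neutrophil markers were low in the same samples. Summed over 11 markers (Ly6g, Mpo, Elane, Prtn3, Ctsg, Ngp, Csf3r, Mmp8, Mmp9, Retnlg and Cd177), stroma had 5.89, 8.59, 6.16, 15.8 and 9.18 normalized counts in O1, O2, O3, Y1 and Y3, and epithelium had 0 to 2.83. The twelfth marker, the chemokine receptor Cxcr2, went the other way, with an epithelial mean of 7.12 ± 2.04 (SD, n = 9) against a stromal mean of 0.607 ± 0.984 (SD, n = 5), and it was left out of this sum after its values were seen. With Cxcr2 the ranges overlapped, at 5.19 to 11.1 in epithelium and 6.16 to 16.3 in stroma. Of the 12 markers 4 passed the filter, of which Mpo and Mmp9 were called lower and Cxcr2 higher in epithelium. Ly6g and Ctsg were at 0 in all 3 aged stromal samples. All 8 macrophage markers had counts in both layers, with a summed 79.8 to 144 in stroma and 30.6 to 70.6 in epithelium. The 13 airway, gland and thyroid markers summed to 3.29 to 27.6 in stroma and 0.692 to 8.73 in epithelium, and of the 5 tested Bpifb1 and Muc5ac were called lower in epithelium. None of the neutrophil, macrophage or airway, gland and thyroid markers was at 0 in all stromal samples. The part of these cells in the granule gene levels was not tested.

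**Figure D3:**
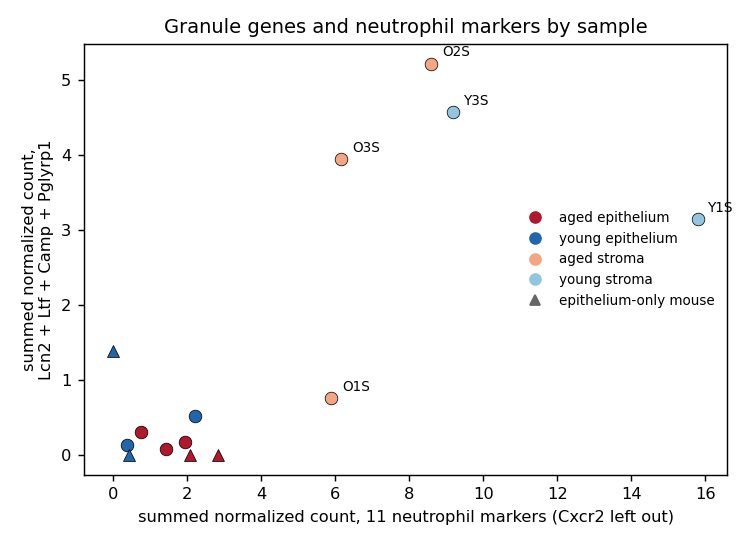
Summed normalized count of Lcn2, Ltf, Camp and Pglyrp1 against that of 11 neutrophil markers; each point is 1 sample, and stromal samples carry their codes. Stroma lies to the right of epithelium (5.89 to 15.8 against 0 to 2.83) only because Cxcr2 was left out after its values were seen. With Cxcr2 the ranges overlap, at 6.16 to 16.3 in stroma and 5.19 to 11.1 in epithelium. The stroma of O1 has the lowest granule sum of the stromal samples (0.758).

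Low counts in the stroma of Y1 and Y3 came with low counts of many other genes. Counts were spread over 34224 and 41308 genes in these 2 samples and over 20115 to 25497 genes in the aged stromal samples. Of 37 other beta-defensin genes, leaving out Defb8, 15 had a count in the stroma of Y1 and 27 in that of Y3, and 0 to 3 in the aged stromal samples. Epithelium of O1, O2 and Y3 had a count for 18, 15 and 20 of them, over 38332, 31264 and 39907 genes. The other epithelial samples had a count for 0 to 7. No gene of these 37 had more than 28 counts in any sample. The 10 Defb6 counts and 2 Defb3 counts of the stroma of Y3, and the 17 Camp counts of that of Y1, were within this limit, and the 33 Camp counts of the stroma of Y3 were above it. The limit is the highest count of 1 gene, Defb7, over all 14 samples. It is therefore no measure of the spread in a given sample. The 24 Defb1 counts of the stroma of O1 and the 26 Defb4 counts of that of O2 were also below 28. These 2 stromal samples, however, had a count for only 3 of the 37 genes each. The part of this spread in the counts named here was not tested.

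Among the 38 other beta-defensins, Defb8 was the only one to pass the filter. It had 11 to 333 counts in the 9 epithelial samples, a mean of 7.45 ± 2.66 normalized counts (SD, n = 9), and 0 counts in all 5 stromal samples, so that it was at least 54.3-fold higher in epithelium (adjusted p = 9.12e-10, edgeR). Per kb of exon its epithelial mean was 26.0, which is above the 16.3 of Defb1.

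Other antimicrobial genes divided between the layers. Of 24 listed, 23 were in the tables and 14 were tested, of which 8 were DEGs higher in epithelium and 5 lower, with a median log2 fold change of 2.83. Pglyrp3, a relative of Pglyrp1 (log2 fold change 6.81), Wfdc12 (6.34) and Wfdc5 (6.19), which share the whey acidic protein domain of Slpi, and S100a7a, a psoriasin (4.89), led the genes that were higher. Per kb of exon, Pglyrp3 had a mean of 7.69 normalized counts in epithelium, where Pglyrp1 had 0.0908. The lysozymes Lyz1 (-2.08) and Lyz2 (-2.04), the peptide hormone gene Adm (-2.76) and Bpifb1 (-2.64), an airway protein, led those that were lower. Lyz1 and Lyz2 are near-identical copies whose reads the counting could split.

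Of 13 listed cytokines that induce such genes, 10 were in the tables and only Il1a passed the filter. Il36a, Il36b and Il36g were not found under these symbols, so that their levels were not examined. Il1a, an alarmin stored in keratinocytes, was higher in epithelium (log2 fold change 3.27, adjusted p = 2.62e-05, edgeR), with 4.94 ± 1.84 normalized counts (SD, n = 9). The other 9 cytokines in the tables (Il1b, Il17a, Il17c, Il17f, Il22, Tnf, Ccl20, Cxcl1 and Cxcl5) did not reach a mean of 1 normalized count in either layer. Their receptors and signalling genes were better covered: of 20 tested, 9 were DEGs higher and 2 lower in epithelium, with a median of 0.37. The IL-36 receptor Il1rl2 (4.34), the IL-22 receptor chain Il22ra1 (3.50), the vitamin D receptor Vdr (3.39) and Nfkbiz (2.44), a nuclear co-regulator of NF-kB targets, had the largest differences. The Toll-like receptors Tlr2 and Tlr5 (both -1.67) were lower.

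Genes that act with these proteins outside the cell were also compared. Of 5 proteases and protease targets tested, the kallikreins Klk7 (7.17), Klk8 (6.01) and Klk5 (3.93), of which Klk5 and Klk7 cleave cathelicidin in skin, were DEGs higher in epithelium. The mast cell chymases Mcpt4 (-2.49) and Cma1 (-1.88) were lower. Camp itself was at 0 counts in 7 of the 9 epithelial samples. Of the receptors of Lcn2 and Ltf, Lrp2 (-4.45) and Lrp1 (-0.51) were lower in epithelium.

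**Figure D4:**
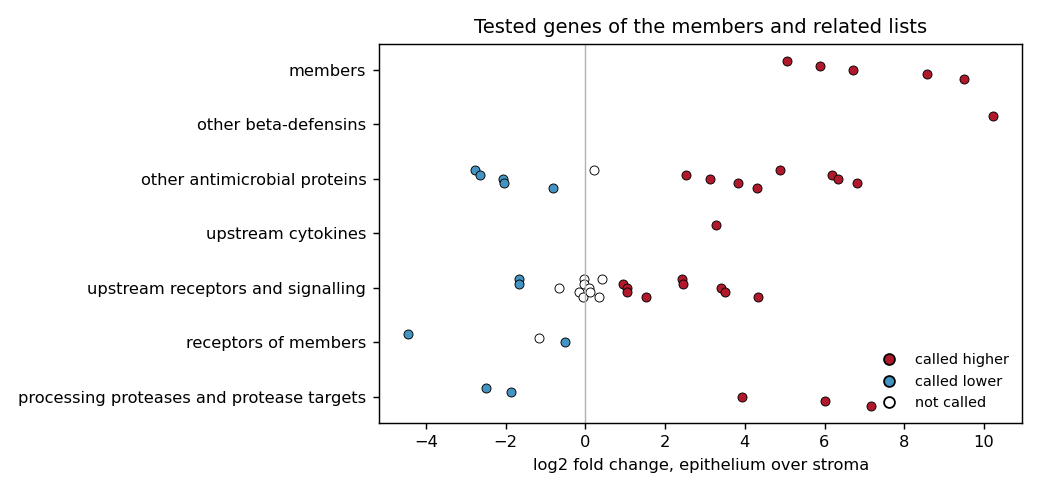
Log2 fold change of epithelium over stroma for each tested gene (1 point) of the members and 6 related lists; red and blue points are DEGs higher and lower in epithelium, and open points were not called. The 5 tested members lie from 5.05 to 9.51, and Defb14 and Defb8 are at 0 in every stromal sample, so that their fitted values are no measure of size.

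The epithelium was then compared between ages. None of the 5 tested genes was called (edgeR), where 0.0126% of 15859 genes were called (2 genes), and 3.21% had an unadjusted p under 0.05. Defb1 and Defb4 had the largest differences. Defb1 had 12.3, 14.3, 12.7, 15.2 and 7.31 normalized counts in the aged samples O1, O2, O3, OF5 and OM8, and 15.8, 17.4, 20.8 and 12.5 in the young samples Y1, Y3, YF5 and YM4. The groups overlapped, with means of 12.3 ± 3.05 (SD, n = 5) and 16.6 ± 3.48 (SD, n = 4). The log2 fold change of aged over young was -0.44 (SE 0.19), with an unadjusted edgeR p of 0.0289 and an adjusted p of 0.9996.

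Defb4 had 221, 241, 236, 245 and 189 normalized counts in aged epithelium and 258, 267, 339 and 240 in young epithelium, in the same order of mice. Only YM4 among the young samples lay within the aged range. Its log2 fold change was -0.29 (SE 0.14), with an unadjusted edgeR p of 0.046 and an adjusted p of 0.9996. In the mice with both layers, both young samples were above all 3 aged samples for Defb1 and for Defb4. The same order was found for Pglyrp1, from only 1 to 4 counts per sample. In the epithelium-only mice the ages overlapped for these genes. The share of all genes whose ages separate in this way was not counted, so that the order carries no weight by itself. An unadjusted p under 0.05 was thus found for 2 of the 5 tested genes, in the same 9 samples, beside 3.21% of all genes tested. Leaving out 1 mouse moved the unadjusted edgeR p of Defb1 between 0.00942 (without OF5) and 0.0847 (without YF5). For Defb4 it moved between 0.028 (without YM4) and 0.186 (without YF5).

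Slpi had means of 822 ± 184 (SD, n = 5) and 863 ± 110 (SD, n = 4) in aged and young epithelium, with a log2 fold change of -0.14 (95% interval -0.43 to 0.14). Defb6 had -0.06 (-0.76 to 0.63) and Defb14 had 0.14 (-0.45 to 0.73). Defb3, Lcn2, Camp, Ltf and Pglyrp1 had at most 5 counts in any epithelial sample and could not be compared at this depth. None of the genes of the related lists was called between ages in epithelium.

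**Figure D5:**
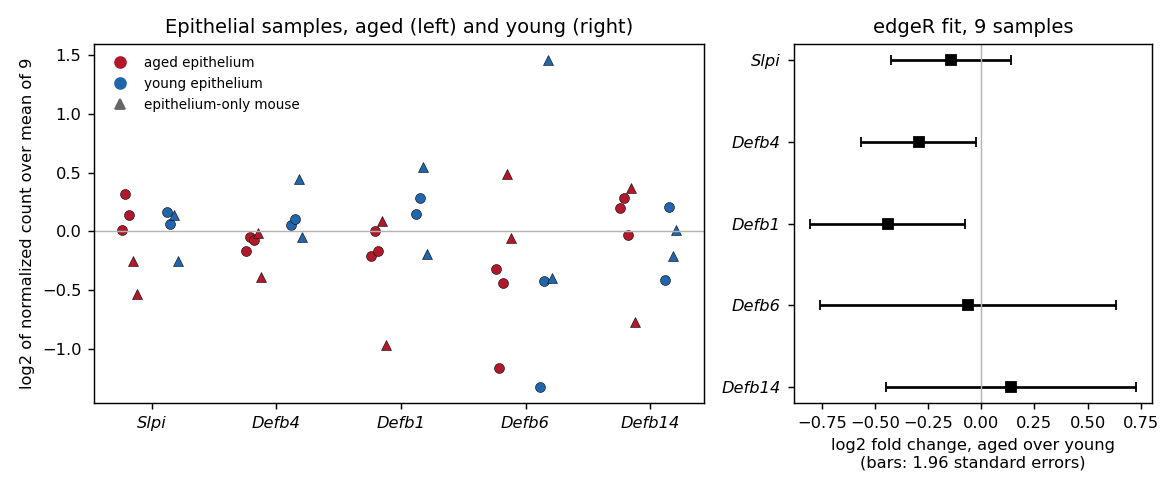
Left, log2 of the normalized count over the mean of the 9 epithelial samples for the 5 tested genes (1 point per mouse, aged left and young right of each gene, triangles for epithelium-only mice); right, the fitted log2 fold change of aged over young with its 95% interval. The fitted values run from -0.44 for Defb1 to 0.14 for Defb14, and none passed the test after adjustment.

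The interaction of age and layer asked whether the difference between layers was unlike in aged and young mice, using the 10 libraries of O1, O2, O3, Y1 and Y3. Of 22771 genes 0% were called by edgeR, 979 had an unadjusted p under 0.05, and 0 of the 9 members tested were called. For Slpi the log2 difference between ages was 0.09 (SE 0.46) and for Defb4 it was -1.15 (SE 1.28). Defb6 (5.59, with an unadjusted edgeR p of 0.0271) and Defb1 (-6.70, with an unadjusted edgeR p of 0.0542) had the largest values, and each rested on the 1 stromal library with counts, Y3 for Defb6 and O1 for Defb1.

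Across the 9 epithelial samples, Defb1 and Defb4 varied together. After centring within each form of mouse code, Pearson's r of the log2 values was 0.96 for Defb1 and Defb4, 0.86 for Defb4 and Slpi and 0.81 for Defb1 and Slpi. The samples share 2 ages, and shallow and deep libraries, so that these are descriptions. Among about 1920 genes of ample expression, those most like Defb1 were Wwtr1 (r = 0.96), Defb4 (0.96) and Kif16b (0.95). Those most like Defb4 were Wwtr1 (0.97), Dynlt3 (0.96) and Wdr26 (0.95). Defb1 was itself below the expression limit of this ranking, and so could not be listed for Defb4. Slpi was most like Jun (0.97), Adipor1 (0.97) and Lce3c (0.97).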

How the data were processed

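Counts of 14 bulk RNA-Seq samples (9 epithelium, 5 stroma) were analysed, with layer, age and mouse taken from the labels. The libraries were enriched for mRNA with oligo-dT beads. The authors aligned reads to GRCm38.p6 with Rsubread, counted them with featureCounts and deposited raw counts per gene. The strand setting and annotation release are not given in the sources used here.

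Differential expression was tested in edgeR 4.0.16 (R 4.3.3) with the quasi-likelihood test, TMM, filterByExpr at a minimum count of 10 and robust glmQLFit. DEGs had a Benjamini-Hochberg adjusted p under 0.05 over all genes tested. The layers were compared over 14 samples without a covariate. Ages were compared over 9 epithelial samples with the code form (both layers or epithelium only) as covariate, and the interaction over 10 samples. The standard error is the log2 fold change divided by the square root of F. Exon lengths came from GENCODE M21. Where a gene had 0 counts, 3 counts per library were taken as the limit, which covers counting error only. Levels of gene pairs were compared by an exact permutation test.

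Both layers of a mouse come from the same animal, which pairs them. The correlation of their deviations from the group means over 16791 genes was 0.0552, 0.0685 and 0.0422 in the aged mice and 0.141 in both young mice. With only 2 young mice the deviations mirror each other, so that their values are equal by construction.

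Alternatives were DESeq2 1.42.0, upper quartile normalization, other filters, covariates and subsets, mouse as a block, and each mouse left out. The fits were tested on simulated counts. The genes named are the 10 members, up to 4 called genes per list and direction by fold change, markers beside a result, and for likeness the 3 genes with the highest r of log2(normalized count + 0.5), where the average log2 CPM was 5 or more. The members and lists were chosen with earlier results of these data known.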

Additional observations from a re-analysis of the deposited data

Results flagged for a closer look

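Of 27 groups of samples (stroma, aged epithelium or young epithelium for 1 gene, leaving out groups at 0 in every sample), 7 held a sample set apart from the others by Dixon's 95% criterion. In 6 of the 7 all other samples were at 0, where any count meets the criterion, so that the usual rate of about 1 in 20 groups by chance does not apply to them. The value given for each is a normalized count. Defb1 in the stroma of O1 was 1.40 (24 counts), with the other 4 stromal samples at 0. Defb6 in the stroma of Y3 was 0.394 (10 counts) and Defb3 there was 0.0788 (2 counts), with the other 4 at 0. Lcn2 and Camp in the young epithelium of Y3 were 0.131 (4 counts) and 0.0981 (3 counts), with the other 3 young samples at 0. Camp in the aged epithelium of O2 was 0.0303 (1 count), with the other 4 at 0. Epithelium of Y3 and of O2 also had low counts for 20 and 15 of the 37 other beta-defensins. Pglyrp1 in the stroma of O3 was 0, below the 0.310 to 0.411 of the other 4.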

How the results depend on the processing

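The 5 genes called higher in epithelium kept this call under each alternative that gave them an adjusted p, and DESeq2 gave none for Defb1 and called 4. At least 10 counts in every sample left only Slpi to test, so that 1 gene was called, higher. Without a filter 8 genes were called, and with mouse as a replicate block 8 were called, in each case 5 higher and 3 lower (Lcn2, Camp and Ltf), since more genes were tested. Among all genes, 14026 of 49574 were called without a filter and 8689 of 22771 with the block. Genes called lower numbered 2 with age and code form as covariates and 2 with the epithelium-only mice against stroma. Those fits called 9736 of 18001 and 6578 of 15484 genes in either direction. Leaving out 1 mouse gave 5 to 7 genes called, 5 of them higher and 0 to 2 lower, with the 2 lower found without O1. Without O1, 9113 of 16994 genes were called in either direction. The block changed no other call.

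Between ages no member was called under 18 alternatives. Among all genes 2 were called, against 28 by DESeq2, 36 without a filter and 0 without Y1. Small differences changed sign. Leaving out 1 mouse gave -0.36 to 0.26 for Defb6, above 0 without O2 (0.047), OM8 (0.078), Y3 (0.11) or YF5 (0.26), and -0.076 to 0.34 for Defb14, below 0 without Y1. In the 5 mice with both layers Defb6 was 0.19 and Slpi 0.038. In the interaction, leaving out 1 mouse gave -3.41 to 1.27 for Defb4, above 0 without O2, and -0.25 to 0.30 for Slpi, below 0 without O1 or Y3 (-0.20). Slpi was -0.17 without a filter and -0.054 without mitochondrial and the 3 most counted genes. The interaction had 0 calls among all genes, 62 by DESeq2 and 98 without a filter. The cause of these changes was not tested.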
